A study of Mus musculus with 26 samples.

Results

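The genes described are the 10 that encode class I phosphoinositide 3-kinase (PI3K) catalytic subunits, their regulatory subunits and the adaptor BCAP: Pik3ca, Pik3cb, Pik3cd, Pik3cg, Pik3r1, Pik3r2, Pik3r3, Pik3r5, Pik3r6 and Pik3ap1. They were chosen by symbol, the family itself having been picked with earlier results of these data known, and all 10 were found among the 16322 genes of the tumour set and among the 14131 genes of the sorted-cell set. RNA was sequenced from mice of the KPC strain, the name in use for a mouse model of pancreatic ductal adenocarcinoma. Mice received vehicle or GS9820, an inhibitor of p110δ, the kinase encoded by Pik3cd. Whole tumours gave 7 vehicle libraries and 5 libraries after 14 days of GS9820. Polymorphonuclear cells (PMN) and monocytes were sorted from the spleen of such tumour-bearing mice. Each cell type gave 3 vehicle libraries and 4 libraries after 14 days of GS9820. The titles add the word low to every PMN library and high to every monocyte library without saying of what. What that word marks cannot be told apart from cell type. The labels give no day for vehicle, no age, and no statement that libraries of a group came from separate animals, so the p-values below measure the spread among these libraries.

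PI3K enzymes phosphorylate a lipid of the inner plasma membrane, and the product recruits Akt and other signalling proteins. The class IA kinases p110α (Pik3ca), p110β (Pik3cb) and p110δ (Pik3cd) are held by the regulatory subunits p85α and its shorter forms (Pik3r1), p85β (Pik3r2) and p55γ (Pik3r3), which bind phosphotyrosine below receptors. The class IB kinase p110γ (Pik3cg) works with p101 (Pik3r5) or p84 (Pik3r6) below G protein-coupled receptors, and BCAP (Pik3ap1) is an adaptor that carries PI3K binding sites in B cells and myeloid cells. The kinases p110α and p110β are found in most tissues, whereas p110δ and p110γ are known above all from leukocytes. GS9820 acts on the p110δ protein, so these data address the transcripts and not the activity of the enzymes.

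All values are deposited log2 expression values, named log2 RPKM (a per-length unit) in the file headers, on which 1 unit is a 2-fold difference. The un-logged values of a library sum to between 1552394 and 1552449 in tumours and between 1429080 and 1430327 in sorted cells, and whether they were divided by gene length could not be told from the values, so orders and shares between genes rest on the unit named in the headers. Tumour and sorted-cell libraries were normalised apart, so values of the 2 sets are given side by side without a test, and sequencing depth is unknown because libraries of a set share nearly the same distribution. Tumours are mixtures, and in them fewer cells of a type and less RNA per cell cannot be told apart. Some libraries stood apart in cell type markers. Vehicle tumour 1 had a mean of 5.23 over 8 ductal or carcinoma epithelium markers, against 7.90 to 9.87 in the other vehicle tumours. The mean of 4 measured hepatocyte markers was 11.9 in treated tumour 3, 6.74 in treated tumour 1 and 6.50 in vehicle tumour 4. The sorted libraries parted by marker as labelled. Cxcr2, a neutrophil chemokine receptor, lay between 11.96 and 12.40 in PMN and between 4.93 and 8.22 in monocytes. Ccr2, the classical monocyte chemokine receptor, lay between 10.54 and 11.99 in monocytes and between 6.85 and 9.09 in PMN. The monocyte libraries nevertheless held PMN transcripts unevenly, with means over 12 PMN markers of 10.55, 10.32 and 8.27 in vehicle libraries 1 to 3. These means were 10.04, 8.73, 9.86 and 9.15 in treated libraries 1 to 4, against 11.90 to 12.41 in PMN. Vehicle library 2 of each cell type had the highest erythroid marker mean of its kind, 7.61 in PMN and 6.48 in monocytes.

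Promoter windows are shown for 3 catalytic genes, because the leukocyte-type pair Pik3cd and Pik3cg varied together over the 12 tumours (r = 0.92) and Pik3ca did not vary with them (r = 0.06 and 0.01). Each window runs from 250 bases before to 50 bases after a RefSeq start (GRCm38.p6), is written 5′ to 3′ on the strand of the gene, and has capitals where the letters GAGGAA or their reverse complement TTCCTC occur. GAGGAA is the core of a site type bound by ETS factors of myeloid and lymphoid cells. The windows lie at chr4:149698659-149698958 on the minus strand for Pik3cd, chr12:32208421-32208720 on the minus strand for Pik3cg and chr3:32396815-32397114 on the plus strand for Pik3ca.
Pik3cd: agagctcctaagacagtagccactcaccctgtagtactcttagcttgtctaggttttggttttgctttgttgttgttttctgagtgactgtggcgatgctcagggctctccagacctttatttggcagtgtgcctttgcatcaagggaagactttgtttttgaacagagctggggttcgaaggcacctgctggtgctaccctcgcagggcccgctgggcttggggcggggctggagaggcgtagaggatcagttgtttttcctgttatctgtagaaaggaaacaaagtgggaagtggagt
Pik3cg: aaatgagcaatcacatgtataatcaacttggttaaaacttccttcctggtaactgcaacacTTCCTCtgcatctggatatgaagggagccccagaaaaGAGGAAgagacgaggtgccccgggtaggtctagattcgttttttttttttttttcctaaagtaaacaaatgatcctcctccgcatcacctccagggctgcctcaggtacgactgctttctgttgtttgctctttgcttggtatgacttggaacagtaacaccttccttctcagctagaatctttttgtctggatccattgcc
Pik3ca: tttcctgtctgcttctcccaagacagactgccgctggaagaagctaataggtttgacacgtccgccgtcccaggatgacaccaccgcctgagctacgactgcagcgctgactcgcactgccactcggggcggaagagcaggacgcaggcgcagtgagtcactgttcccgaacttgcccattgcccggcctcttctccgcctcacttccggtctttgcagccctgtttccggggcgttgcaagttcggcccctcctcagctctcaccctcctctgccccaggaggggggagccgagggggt
The Pik3cg window holds the letters once on each strand, at positions -189 and -152 from the start, and those of Pik3cd and Pik3ca hold none. Of the 10 genes, 9 had a RefSeq window and Pik3r6 had none. Over their 15 windows, 5 held the motif on either strand, and these belonged to 3 genes: Pik3cg, Pik3r3 and Pik3ap1. The motif is common, since 9289 of 32851 windows of all genes (28.3%) and 8446 of 27025 genes (31.3%) hold it. Base composition differed among the catalytic genes. G and C made up 44.0% of the printed Pik3cg window and 51.0% of that of Pik3cd, against 63.3% for Pik3ca and 79.0% for the window of Pik3cb. In the windows of the other genes the share was 43.7% and 75.7% (Pik3r1), 69.3% (Pik3r2), 63.0%, 58.0% and 47.3% (Pik3r3), 62.0% (Pik3r5) and 69.7% (Pik3ap1). Only 1 window of each gene is printed: the other Pik3cd windows held 54.0% and 68.0%, and the other Pik3cg window, which overlaps the printed one and holds the same 2 motif matches, held 40.7%. The median over all windows was 52.7%. The presence or absence of these letters is a description of the windows, and factor binding was not measured.

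Pik3cd, which encodes the target of the drug (ENSMUSG00000039936, GRCm38 chromosome 4, 149649168 to 149702571, minus strand), ranged in the 7 vehicle tumours from 3.74 through a median of 4.99 to 5.52. The 5 treated tumours stood at 4.56, 5.58, 5.29, 6.32 and 5.87. Treated tumours 2, 4 and 5 lay above every vehicle tumour, treated tumour 1 lay among the lower vehicle tumours, and the groups overlapped. The vehicle mean was 4.82 ± 0.62 (SD, n = 7) and the treated mean 5.52 ± 0.66 (SD, n = 5). The difference of 0.70 ± 0.34 (SE) did not pass the threshold (limma over 16296 genes, adjusted p = 0.229), and its 95% interval ran from -0.04 to 1.44.

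Pik3cg (ENSMUSG00000020573, chromosome 12, 32173473 to 32208659, minus strand) followed the same tumours. Vehicle tumours ran from 3.97 through a median of 4.84 to 5.28, and treated tumours 1 to 5 stood at 4.76, 5.47, 4.79, 5.89 and 5.35. Its difference of 0.52 ± 0.27 did not pass (limma, adjusted p = 0.261). Pik3ca (ENSMUSG00000027665, chromosome 3, 32397671 to 32468486, plus strand) ran from 6.38 through 6.67 to 7.58 in vehicle and stood at 6.11, 6.38, 6.70, 6.47 and 6.55 in treated tumours. Its 2 highest values were those of vehicle tumours 1 and 3, at 7.47 and 7.58, which also had the 2 lowest epithelial marker means of the vehicle group (5.23 and 7.90). The difference was -0.40 ± 0.23 (adjusted p = 0.303). Pik3cb (ENSMUSG00000032462, chromosome 9, 99036654 to 99140621, minus strand) averaged 4.28 ± 0.43 (SD, n = 7) and 3.92 ± 0.20 (SD, n = 5), a difference of -0.36 ± 0.22 (adjusted p = 0.323).

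Among the class IA regulatory genes the p85 pair lay in opposite directions. Pik3r1 (ENSMUSG00000041417, chromosome 13, 101680563 to 101768217, minus strand) ran from 5.74 through 6.50 to 7.54 in vehicle tumours and stood at 6.94, 7.05, 7.11, 7.35 and 6.93 in treated tumours. All treated values lay above 6 of the 7 vehicle tumours, and vehicle tumour 5 lay above them all. The difference of 0.56 ± 0.24 was the only one of the 10 with an unadjusted p under 0.05 (limma, adjusted p = 0.176). Without vehicle tumour 5 it was 0.73 and passed (adjusted p = 0.0238), and with array quality weights it was 0.66 and passed (adjusted p = 0.0331). In these settings 1693 and 2764 of all 16296 genes passed, against 359 with all tumours and no weights.

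Pik3r2 (ENSMUSG00000031834, chromosome 8, 70768176 to 70776713, minus strand) ran from 6.12 through 7.19 to 7.99 in vehicle and stood at 6.69, 6.40, 6.68, 6.52 and 6.22 in treated tumours. The treated tumours lay in the lower end of the vehicle range, beside vehicle tumours 5 and 6. Its difference was -0.59 ± 0.28 (limma, adjusted p = 0.218). Pik3r3 (ENSMUSG00000028698, chromosome 4, 116221618 to 116303056, plus strand) averaged 3.68 ± 0.83 (SD, n = 7) and 3.88 ± 0.52 (SD, n = 5). Its value is uncertain, because 1289 of its 5300 annotated exonic bases are also annotated to Gm49337 on the same strand, and how the counting divided them is not given in the sources used here.

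The class IB regulatory genes lie on the plus strand of chromosome 11, Pik3r5 (ENSMUSG00000020901) at 68432121 to 68497849 and Pik3r6 (ENSMUSG00000046207) at 68503019 to 68552698. Pik3r5 had a vehicle mean of 4.21 ± 0.33 (SD, n = 7) and a treated mean of 4.47 ± 0.48 (SD, n = 5), a difference of 0.26 ± 0.23. Pik3r6 had the lowest level of the family in tumours, between 1.87 and 3.81 over the 12 tumours. The BCAP gene Pik3ap1 (ENSMUSG00000025017, chromosome 19, 41272377 to 41385102, minus strand) had the widest spread in vehicle tumours, from 4.35 in vehicle tumour 1 to 7.13 in vehicle tumour 5. Its difference was 0.43 ± 0.45 (limma, adjusted p = 0.582). Single tumours moved both values: Pik3ap1 was at 0.23 without treated tumour 2 and 0.73 without vehicle tumour 5, and Pik3r5 at 0.11 without treated tumour 4 and 0.44 without treated tumour 1.

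**Figure D1:**
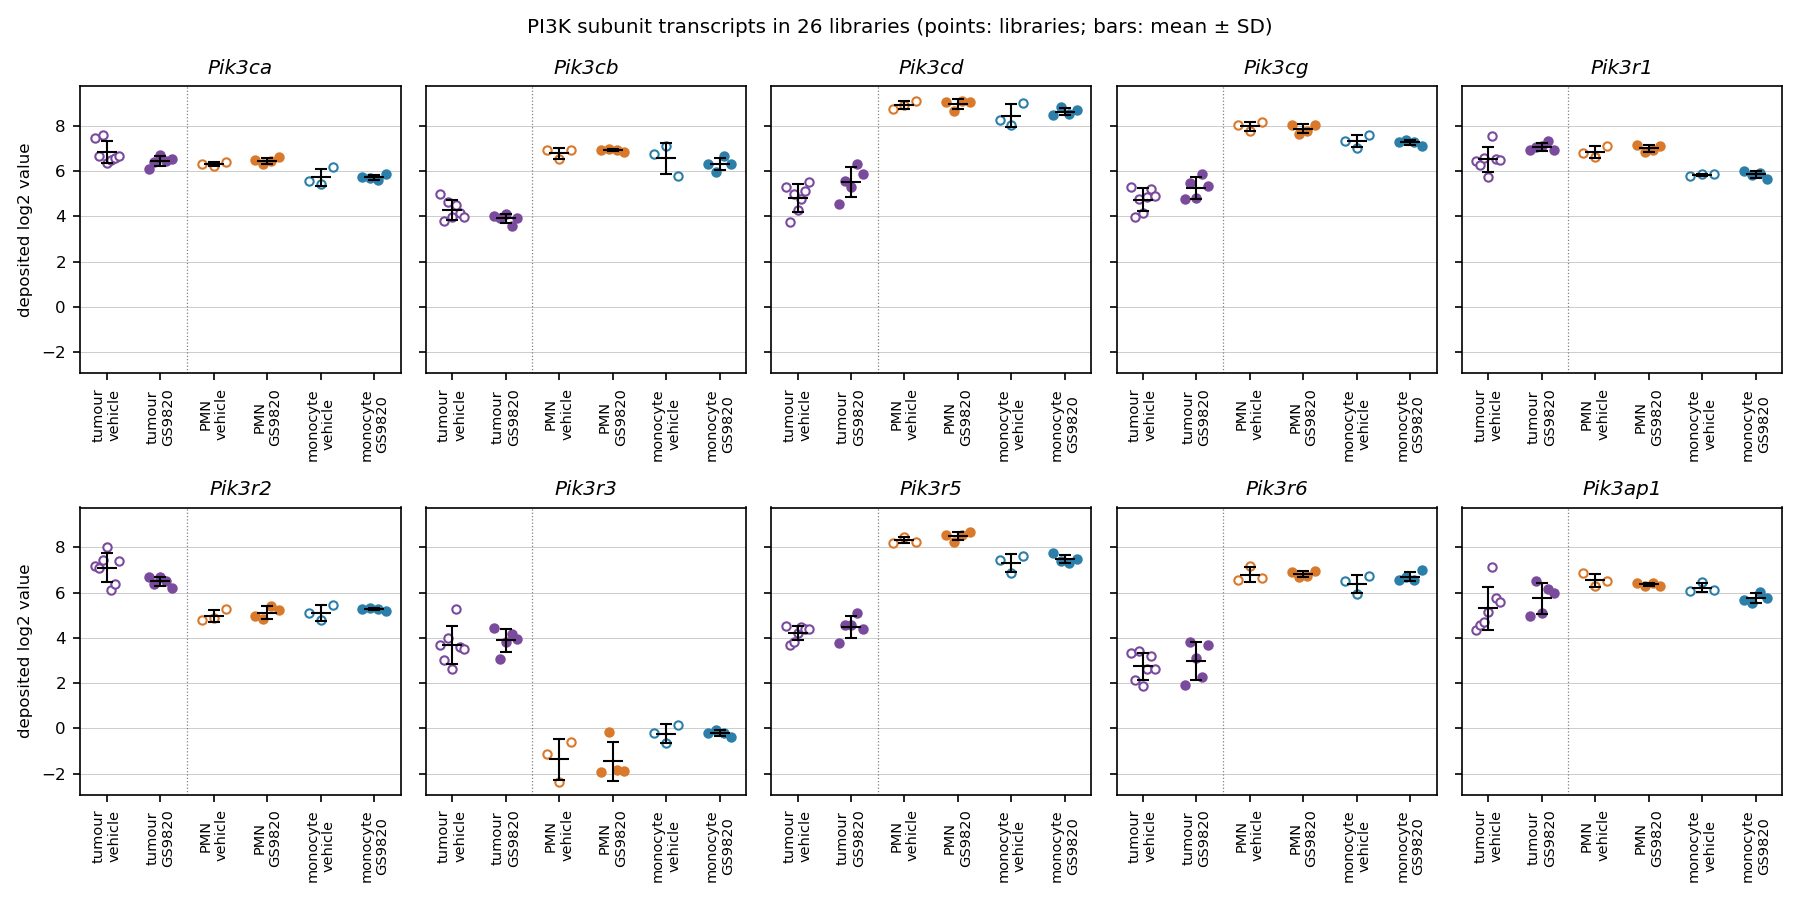
Deposited log2 value (y axis) of each of the 10 PI3K genes in 26 libraries, by group (x axis). Open points are vehicle and filled points GS9820 libraries, bars are mean ± SD, and the dotted line parts tumours from sorted cells, which were normalised apart. Pik3cd lies between 3.74 and 6.32 in tumours and between 8.06 and 9.11 in sorted cells, and Pik3r3 lies at or under 0.17 in sorted cells.

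Over the tumour comparison 0 of 10 genes passed the limma threshold of adjusted p 0.05 where 2.2% of all 16296 genes tested passed. An unadjusted p under 0.05 was reached by 1 of 10, beside 24.4% of all genes. The members' median difference was 0.24 beside -0.06 over all genes, 7 of 10 lay above 0, and in 0 of 10 did the ranges of the groups not overlap, beside 2.81% of all 16322 genes. The number of genes passing in this comparison depended on single libraries, being 359 with all tumours, 0 without treated tumour 4 and 1693 without vehicle tumour 5.

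Of a list of 40 other genes of the pathway (other PI3K classes, lipid phosphatases, Akt, mTOR and Ras genes and their adaptors), none of the 40 passed in tumours (0 by limma), 7 reached an unadjusted p under 0.05 beside 24.4% of all genes, and the list had a median difference of -0.10. The 2 of smallest p were Inpp4a, a phosphatase of a PI3K lipid product, with a difference of 0.55 ± 0.14 (limma, adjusted p = 0.0592), and Phlpp1, an Akt phosphatase, with -0.80 ± 0.22 (adjusted p = 0.0649).

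Leukocyte marker transcripts varied among the tumours, and Pik3cd varied with them. The mean of 8 pan-leukocyte markers (Ptprc, Cd52, Coro1a, Laptm5, Cd53, Lcp1, Itgb2 and Cd48) was lowest in vehicle tumour 2 (4.69), where Pik3cd was 3.74, and highest in treated tumour 4 (6.98), where Pik3cd was 6.32. Over the 12 tumours Pik3cd followed the leukocyte mean with Pearson r = 0.96 (permutation p = 1e-05, the smallest that 100000 resamples give, adjusted p = 0.0003 over 30 relations) and Spearman rho = 0.94 (permutation p = 5e-05, adjusted p = 0.0015). Without vehicle tumour 2 and treated tumour 4, the 2 farthest from the median of the marker mean, r was 0.92 (permutation p = 0.00023, adjusted p = 0.0069). Within the 7 vehicle tumours alone r was 0.98 (permutation p = 0.000397, adjusted p = 0.0119).

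Pik3cg gave r = 0.91 (permutation p = 0.0001, adjusted p = 0.0015) and rho = 0.90 (permutation p = 0.00029, adjusted p = 0.00435). Without the same 2 tumours r was 0.79 and no longer passed over 30 relations (permutation p = 0.00662, adjusted p = 0.0993), and in the vehicle tumours it was 0.93 (permutation p = 0.00635, adjusted p = 0.0952). Pik3r5, the partner of p110γ, gave r = 0.78 (permutation p = 0.00316, adjusted p = 0.0316) and rho = 0.68 (permutation p = 0.0176, adjusted p = 0.132). Without the 2 tumours its r was 0.52 (permutation p = 0.118, adjusted p = 0.448), so its call rests on those tumours. In the 7 vehicle tumours alone its r was 0.73 (permutation p = 0.0685, adjusted p = 0.41). These were the 3 of 30 relations (10 genes by leukocyte, epithelial and acinar marker means) that passed. The share of all tumour genes that follow the leukocyte mean as closely was not computed. The count therefore does not set these genes apart from other genes.

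The broadly expressed Pik3ca and Pik3cb gave r = 0.11 (rho = 0.15, permutation p = 0.726, adjusted p = 0.99) and r = -0.02 (rho = -0.19, permutation p = 0.94, adjusted p = 0.998) with the leukocyte mean. Pik3ap1 rose with the epithelial mean in rank, with rho = 0.78 (permutation p = 0.00373, adjusted p = 0.0373), but its r of 0.67 did not pass (permutation p = 0.0128, adjusted p = 0.0776), and without vehicle tumours 1 and 3 r was 0.63 (permutation p = 0.0485, adjusted p = 0.364). Pik3ca gave r = -0.74 with the epithelial mean (rho = -0.49, permutation p = 0.0129 for r and 0.11 for rho, adjusted p = 0.0776 for r). That value rested on vehicle tumours 1 and 3, without which r was -0.15 (permutation p = 0.669).

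**Figure D2:**
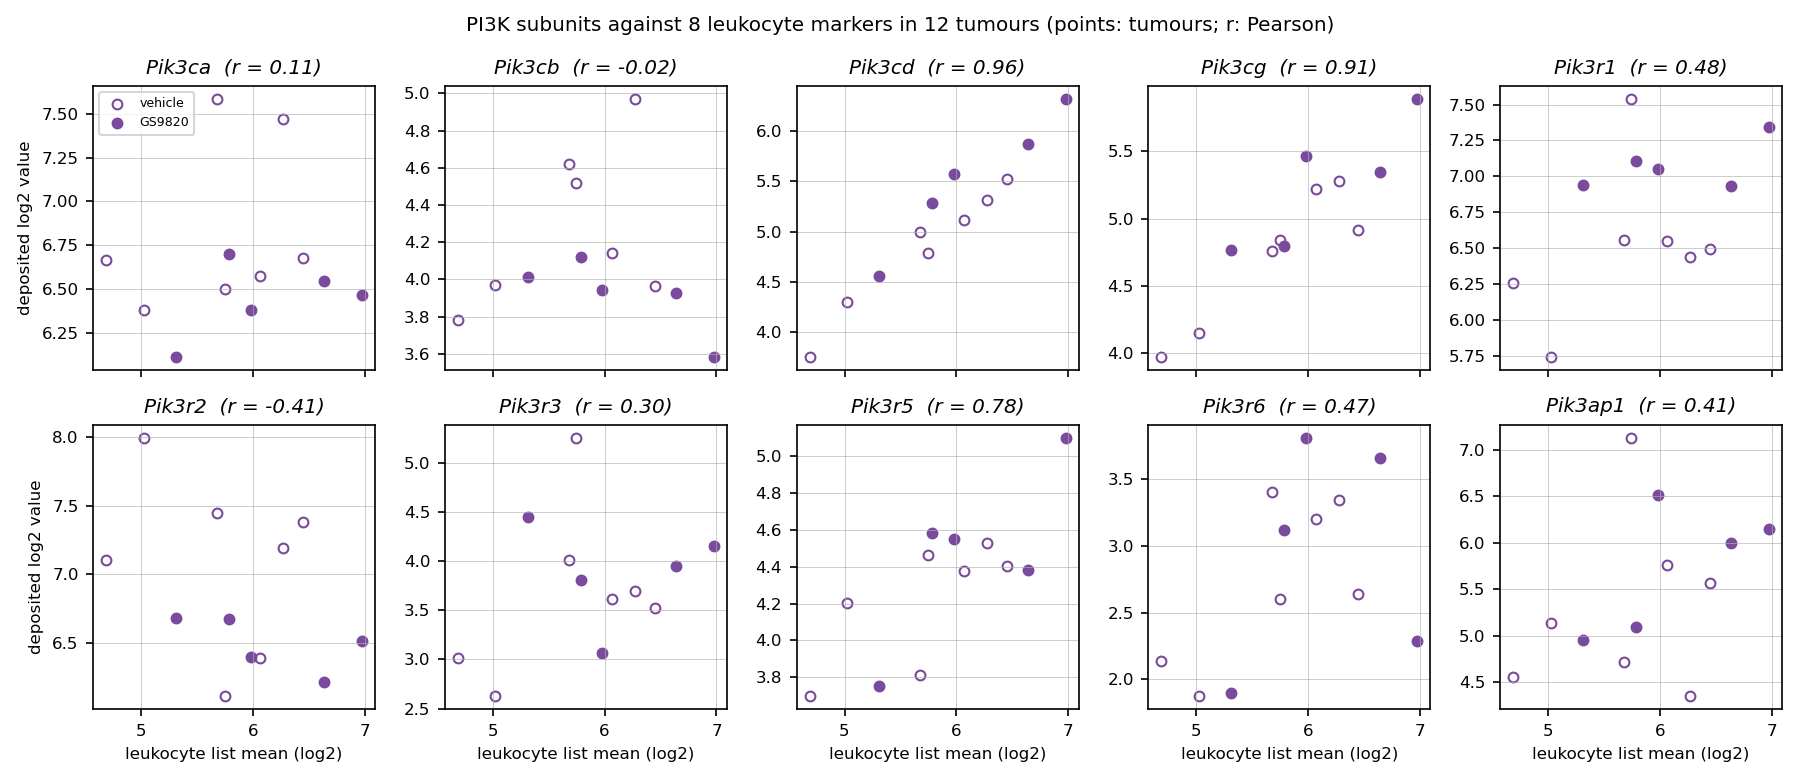
Deposited log2 value of each PI3K gene (y axis) against the mean of 8 leukocyte markers (x axis, log2) in 12 tumours, open for vehicle and filled for GS9820. The points of Pik3cd fall along a line (r = 0.96), those of Pik3cg lie near one (r = 0.91), and those of Pik3ca and Pik3cb do not (r = 0.11 and -0.02).

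The treated tumours had leukocyte means of 5.31, 5.98, 5.78, 6.98 and 6.64, and the vehicle tumours of 6.27, 4.69, 5.68, 5.02, 5.75, 6.07 and 6.45. With this mean as a covariate, an alternative added after the data were seen, the treatment difference was 0.29 for Pik3cd (limma, adjusted p = 0.26) and 0.22 for Pik3cg (adjusted p = 0.447) beside 0.70 and 0.52 without it. It was 0.46 for Pik3r1, -0.48 for Pik3ca and -0.49 for Pik3r2. Without vehicle tumours 1 and 4 and treated tumours 1 and 3, whose epithelial or hepatocyte markers stood apart, Pik3cd was at 1.09 (adjusted p = 0.179) and Pik3cg at 0.83 (adjusted p = 0.178). Treated tumour 4 also had the highest means of the tumours for B cell (5.85), T cell (4.49) and plasma cell (7.48) markers. The part of these cells in the values of Pik3cd was not tested beyond the covariate.

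Marker means of other tissue compartments are given without a test, and their ranges overlapped between the groups. The mean of 6 islet markers lay between -0.12 and 7.70 with vehicle and between 6.14 and 9.57 with GS9820. Only vehicle tumour 6 (7.70) lay inside the treated islet range. Vehicle tumours 1 to 5 stood at 1.29, 1.91, 0.68, -0.12 and 3.09 and vehicle tumour 7 at 5.89, under every treated tumour. The acinar mean lay between 2.58 and 10.2 with vehicle and between 5.73 and 10.6 with GS9820. In 4 of 5 treated tumours, all but tumour 1, the dendritic cell and endothelial means lay above every vehicle tumour. The dendritic cell mean over 5 of 7 listed markers lay between 1.83 and 2.90 with vehicle and between 2.02 and 3.95 with GS9820. The endothelial mean lay between 4.87 and 6.11 with vehicle and between 5.69 and 6.64 with GS9820. The part of these compartments in the treatment differences of the PI3K genes was not tested.

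The balance between kinases within a tumour cancels any scaling of a whole library. Pik3cd minus Pik3ca was -2.01 ± 0.62 (SD, n = 7) with vehicle and -0.92 ± 0.57 (SD, n = 5) with GS9820, a difference of 1.09 (exact two-sided permutation test, p = 0.0126, adjusted p = 0.143 over 25 tests). Pik3cd minus Pik3cb was 0.54 ± 0.54 (SD, n = 7) and 1.61 ± 0.83 (SD, n = 5), a difference of 1.06 (exact permutation p = 0.0202, adjusted p = 0.143). Pik3r1 minus Pik3r2 was -0.58 ± 1.13 (SD, n = 7) and 0.58 ± 0.23 (SD, n = 5), a difference of 1.15 (exact permutation p = 0.0518, adjusted p = 0.216). The balance of the leukocyte-type kinases, Pik3cd minus Pik3cg, differed by 0.18 (exact permutation p = 0.307, adjusted p = 0.59, n = 7 and 5). By exact permutation 0 of 25 balances passed after adjustment, and 5 had an unadjusted p under 0.05. Balances between the vehicle cell types could not pass, since 3 and 3 libraries allow no p under 0.1. In the other sorted comparisons the smallest possible p is 0.0286, which passes adjustment only if many of the 25 tests come as low. Little can therefore be read from the lack of sorted-cell balances that passed.

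Expressed as a share of the summed un-logged values of the 4 catalytic genes, Pik3ca led in tumours and Pik3cd in sorted cells. In vehicle tumours Pik3ca made up 60.1% ± 7.88 (SD, n = 7) and Pik3cd 15.4% ± 4.76 (SD, n = 7). In treated tumours they made up 46.3% ± 7.03 and 24.9% ± 6.27 (SD, n = 5). The Pik3cd share was lowest in vehicle tumour 2 (9.27%) and highest in treated tumour 4 (33.4%), the tumours with the lowest and highest leukocyte means. The Pik3cd share of PMN was 52.2% ± 3.97 (SD, n = 3) with vehicle and 52.9% ± 2.64 (SD, n = 4) with GS9820. In monocytes it was 52.1% ± 8.48 (SD, n = 3) and 57.9% ± 3.60 (SD, n = 4). Pik3ca made up 7.77% to 9.33% on average in the 4 sorted groups.

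**Figure D3:**
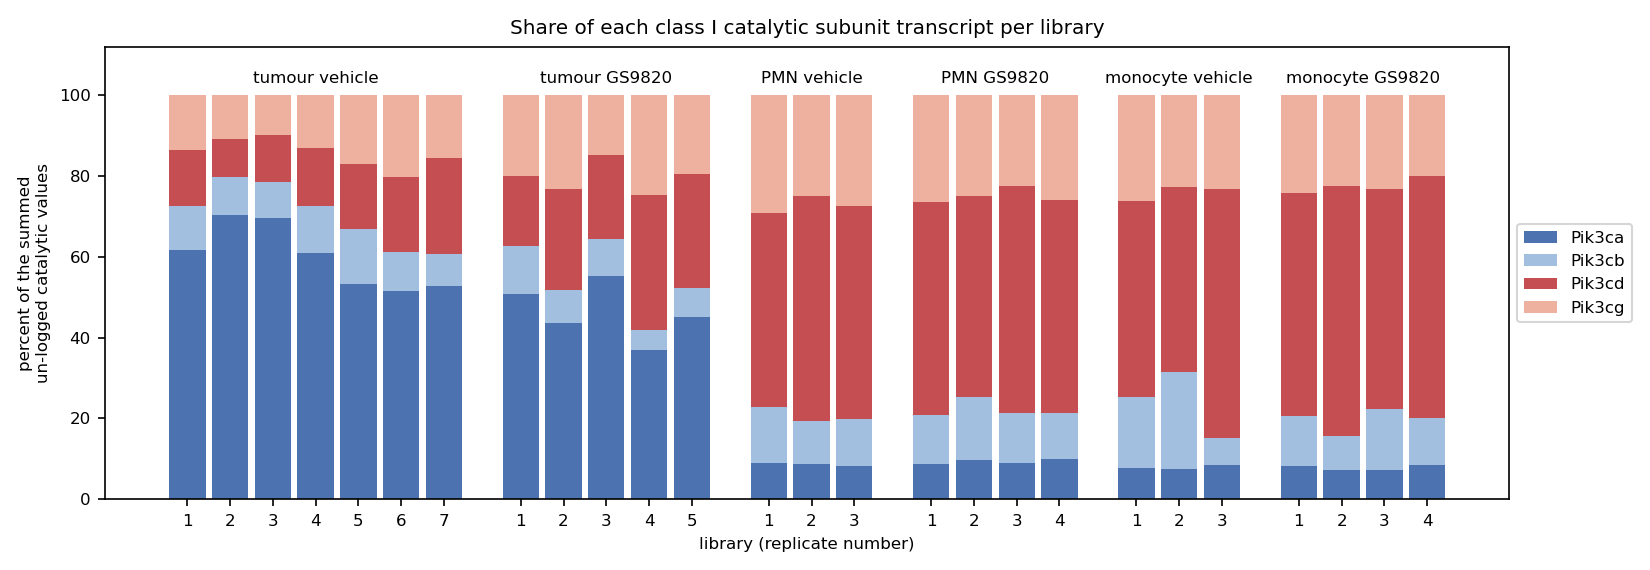
Percent of the summed un-logged values of the 4 class I catalytic genes (y axis) in each library, by group and replicate number (x axis). Pik3ca takes 36.9% to 70.4% of the sum in tumours, and Pik3cd takes 45.8% to 61.9% in the sorted cells.

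The order of the levels differed accordingly. In vehicle tumours Pik3r2 (7.09 ± 0.64), Pik3ca (6.84 ± 0.48) and Pik3r1 (6.51 ± 0.54; SD, n = 7) came first, and these neighbours did not differ beyond their spread. Pik3r1 lay 1.20 above the next, Pik3ap1, and was higher in 7 of 7 tumours. Pik3cd lay 0.09 above Pik3cg and was the higher in 4 of 7. In vehicle PMN Pik3cd came first (8.92 ± 0.18), 0.62 above Pik3r5 (8.30 ± 0.13) and 3 of 3 times the higher, followed by Pik3cg (7.98 ± 0.20; SD, n = 3). Pik3r1, Pik3cb and Pik3r6 (6.84, 6.80 and 6.79) did not differ beyond their spread. In vehicle monocytes Pik3cd again came first (8.43 ± 0.51), 1.11 above Pik3cg (7.32 ± 0.28; SD, n = 3), which stood level with Pik3r5 (7.31). By mean level Pik3cd lay above 96.5% of the genes of the sorted set in vehicle PMN and above 51.2% of those of the tumour set in vehicle tumours. In all 4 sorted groups Pik3r2 and Pik3r3 had the lowest means.

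In PMN the drug target showed no difference that could be told from the spread. Pik3cd stood at 8.74, 8.92 and 9.11 in vehicle and at 9.05, 8.65, 9.11 and 9.06 after GS9820, with overlapping groups. Its difference was 0.05 ± 0.20 with a 95% interval from -0.40 to 0.49. Pik3cg stood at 8.03, 7.76 and 8.16 and at 8.06, 7.64, 7.78 and 8.03, and its difference was -0.10 ± 0.15. Over the family, 0 of 9 tested genes passed limma in PMN and 0 of 9 had an unadjusted p under 0.05, and the percent of all 13968 genes that passed was 0, with 430 genes (3.08%) at an unadjusted p under 0.05. The groups did not overlap for 0 of 10 genes, beside 3.81% of all 14131. The largest difference was 0.20 ± 0.17, that of Pik3r5. Pik3r3 was not tested in sorted cells, because fewer than 3 of the 14 libraries reached a value of 0. Of 38 pathway genes tested 0 passed and 0 had an unadjusted p under 0.05. Rptor, a subunit of mTORC1, had the smallest p with 0.25 ± 0.12, then the adaptor Gab2 with 0.45 ± 0.21.

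In monocytes Pik3ap1 was the one gene of the family whose groups did not overlap, 1 of 10 beside 3.36% of all 14131 genes. It stood at 6.07, 6.46 and 6.13 in vehicle and at 5.66, 5.54, 6.04 and 5.77 after GS9820. The difference of -0.47 ± 0.15 had the 43rd smallest p of 13968 genes and did not pass (limma, adjusted p = 0.9955). Pik3cd stood at 8.24, 8.06 and 9.01 in vehicle and at 8.49, 8.83, 8.51 and 8.69 after GS9820, and the treated libraries all lay inside the vehicle range. Its difference was 0.20 ± 0.20 with a 95% interval from -0.25 to 0.64, and it was 0.0067 without vehicle library 2 and 0.49 without vehicle library 3. By limma 0 of 9 genes passed, 1 of 9 had an unadjusted p under 0.05, and 0 percent of the 13968 genes passed, with 335 (2.40%) at an unadjusted p under 0.05. Of the 38 pathway genes 0 passed and 0 had an unadjusted p under 0.05. The smallest were those of Tsc2, an inhibitor of mTORC1 signalling (-0.16 ± 0.08), and of Mtor (-0.22 ± 0.11).

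The test of whether the GS9820 difference itself differed between monocytes and PMN gave 0 of 9 genes by limma, 0 of 9 at an unadjusted p under 0.05 (1.93% of all genes) and 0 percent of all genes by limma. For Pik3cd the difference of effects was 0.15 ± 0.29 and for Pik3ap1 -0.28 ± 0.21. Among the 38 pathway genes 0 passed and 0 had an unadjusted p under 0.05, with Rptor at -0.32 ± 0.17 and Tsc2 at -0.22 ± 0.12.

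**Figure D4:**
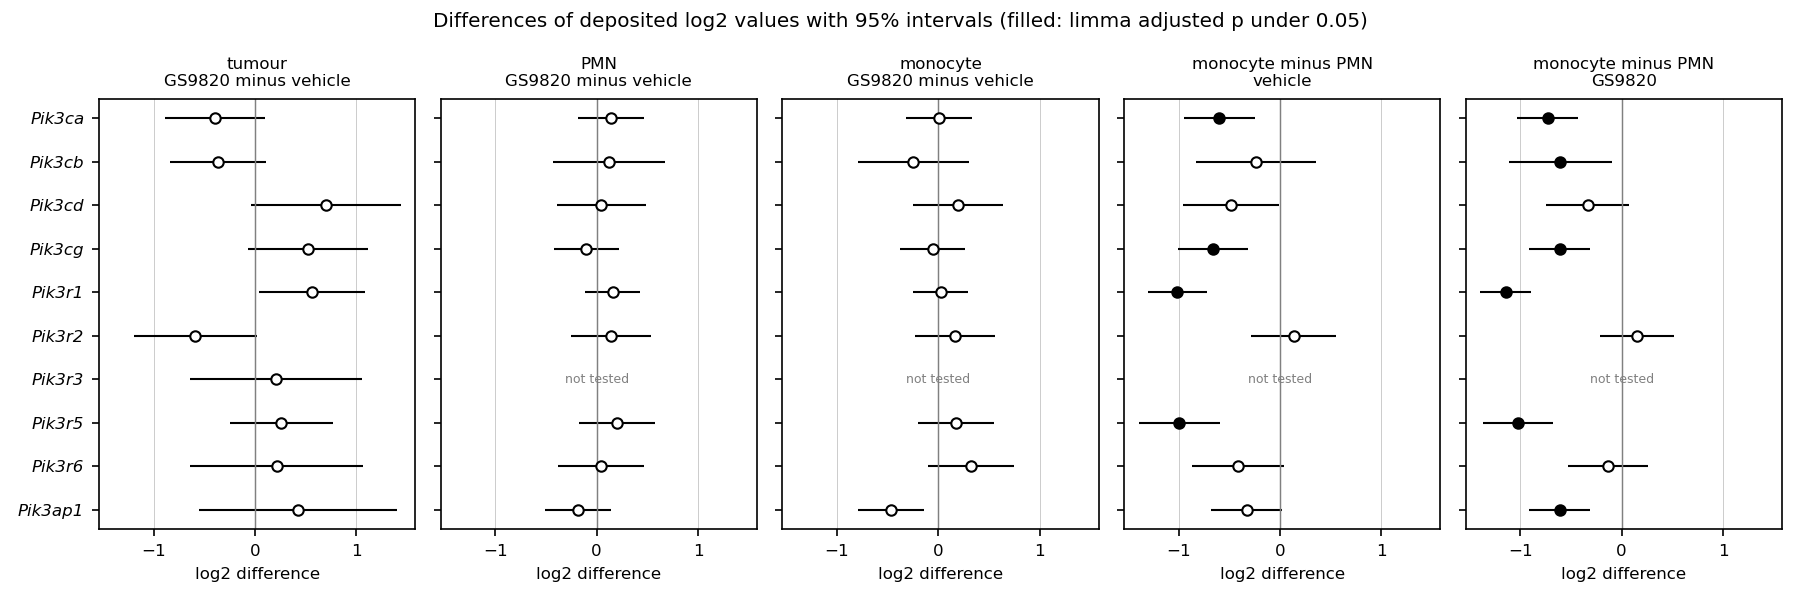
Differences of deposited log2 values (x axis) with 95% intervals for the 10 genes (y axis) in 5 comparisons, filled where limma's adjusted p was under 0.05. The 3 treatment panels hold open points only, and the 2 panels of monocytes against PMN hold filled points left of 0 for Pik3ca, Pik3cg, Pik3r1 and Pik3r5.

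Between the cell types, the genes of the family that passed were all lower in monocytes. In vehicle mice 4 of 9 tested genes were lower in monocytes than in PMN and 0 of 9 were higher (limma, adjusted p under 0.05), where 27.2% of all genes tested were lower and 32.8% higher. After GS9820, 6 of 9 were lower and 0 of 9 higher, where 32.1% of all genes were lower and 37.6% higher. The median difference of the 9 was -0.49 in vehicle and -0.61 after GS9820, beside 0.07 over all genes in each. The groups did not overlap for 4 of 10 genes in vehicle and 6 of 10 after GS9820, beside 59.1% and 69.1% of all 14131 genes. Without PMN vehicle 2 and monocyte vehicle 2, the libraries with most erythroid transcripts, 5 and 6 genes were lower and Pik3r1 differed by -1.14 in vehicle. These comparisons share their libraries with those of the treatment.

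Pik3r1 and Pik3r5 had the largest differences of the 9 tested genes, and in vehicle the 2 values lay within 1 SE of each other. Pik3r1 stood at 6.79, 6.63 and 7.11 in vehicle PMN and at 5.77, 5.87 and 5.86 in vehicle monocytes, 2 ranges with a wide gap. The difference was -1.01 ± 0.13 (limma, adjusted p = 4.43e-05), and -0.88 without PMN vehicle 3. After GS9820 it stood at 7.15, 6.83, 6.93 and 7.09 in PMN and between 5.66 and 5.9996 in the 4 monocyte libraries, with a difference of -1.15 ± 0.12 (adjusted p = 2.81e-06).

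Of the class IB genes, the kinase gene Pik3cg and its partner gene Pik3r5 were lower in monocytes. Pik3r5 stood at 8.20, 8.46 and 8.25 in vehicle PMN and at 7.46, 6.87 and 7.61 in vehicle monocytes, a difference of -0.99 ± 0.18 (limma, adjusted p = 0.000538). After GS9820 the difference was -1.02 ± 0.16 (adjusted p = 9.67e-05). Pik3cg stood at 7.34, 7.04 and 7.59 in vehicle monocytes, under all PMN values given above, and differed by -0.66 ± 0.16 (adjusted p = 0.0032) in vehicle and -0.61 ± 0.14 (adjusted p = 0.00155) after GS9820. The alternative partner Pik3r6 differed by -0.42 ± 0.21 and -0.14 ± 0.18 and did not pass, except in vehicle without monocyte vehicle 3 (-0.59, adjusted p = 0.031). Without monocyte vehicle 2 it was -0.19. Pik3r5 minus Pik3r6 was 1.67 ± 0.10 in treated PMN and 0.79 ± 0.30 in treated monocytes (SD, n = 4 each), a difference of -0.88 at the smallest p these groups allow (exact permutation p = 0.0286, adjusted p = 0.143).

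Pik3ca stood at 6.33, 6.23 and 6.41 in vehicle PMN and at 5.58, 5.44 and 6.16 in vehicle monocytes. Its difference was -0.60 ± 0.16 (limma, adjusted p = 0.00648), and -0.73 ± 0.14 (adjusted p = 0.00048) after GS9820. In a fit of the 2 vehicle groups alone the first did not pass (adjusted p = 0.0609). Pik3ap1 was lower in monocytes after GS9820 (-0.61 ± 0.14, adjusted p = 0.00169), and in vehicle its difference was -0.33 ± 0.16 (adjusted p = 0.0938). The vehicle difference passed without PMN vehicle 2 (-0.46, adjusted p = 0.0334), without monocyte vehicle 2 (-0.45, adjusted p = 0.0383) and without both (-0.58, adjusted p = 0.0126), and it was -0.18 without PMN vehicle 1. Pik3r2 was the one of the 9 tested genes on the other side of 0, at 0.13 ± 0.19 and 0.15 ± 0.17. The untested Pik3r3 lay there too, with means of -1.37 in PMN and -0.24 in monocytes in vehicle and of -1.46 and -0.21 after GS9820, and its groups overlapped in both.

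Pik3cd did not pass in either comparison, with -0.49 ± 0.22 in vehicle (limma, adjusted p = 0.0702) and -0.34 ± 0.19 after GS9820 (adjusted p = 0.129). The 95% interval in vehicle ran from -0.96 to -0.01. Monocyte vehicle library 3, at 9.01, was the only vehicle monocyte library inside the PMN range, and without it the vehicle difference was -0.77 and passed (adjusted p = 0.00157). It was -0.30 without monocyte vehicle 2, and -0.30 without vehicle library 2 of both cell types (adjusted p = 0.329). After GS9820 the same difference passed without that library (adjusted p = 0.0311), in a fit of the 2 groups alone (adjusted p = 0.0372) and with array quality weights (-0.40, adjusted p = 0.00736). Relative to Pik3ca, Pik3cd was 2.50 ± 0.14 higher in treated PMN and 2.90 ± 0.16 higher in treated monocytes (SD, n = 4 each), a difference of 0.39 (exact permutation p = 0.0286, the smallest possible, adjusted p = 0.143).

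Pik3cb had the largest SD of the 10 genes over the 7 monocyte libraries (0.46). Vehicle monocytes stood at 6.76, 7.13 and 5.80 and treated monocytes at 6.31, 5.97, 6.66 and 6.32, against 6.52 to 6.97 in all PMN libraries. After GS9820 it was lower in monocytes by limma (-0.61 ± 0.24, adjusted p = 0.0352). That call was lost in 7 of 14 fits that each left out a library, those of treated PMN 1, 2, 3 or 4 and treated monocytes 1, 2 or 4, with adjusted p from 0.0541 to 0.104. In vehicle the difference was -0.24 ± 0.27 (adjusted p = 0.468).

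The values of Pik3cb and Pik3cd moved with the PMN markers of the monocyte libraries, in opposite directions, which is described here without a test. Monocyte vehicle library 3, with the lowest PMN marker mean (8.27), had the lowest Pik3cb (5.80) and the highest Pik3cd (9.01) of the 7 monocyte libraries. Vehicle library 2, with a PMN marker mean of 10.32, had the highest Pik3cb (7.13) and the lowest Pik3cd (8.06). Vehicle library 1, with the highest PMN marker mean (10.55), had Pik3cb at 6.76 and Pik3cd at 8.24. Vehicle libraries 3 and 2 also had the highest and the lowest monocyte marker mean (9.50 and 7.84), so the order is not particular to PMN markers. Pik3r1 averaged 5.84 ± 0.11 (SD, n = 7) over the 7 monocyte libraries and showed no such order. The part of the PMN transcripts in the cell type differences was not tested.

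**Figure D5:**
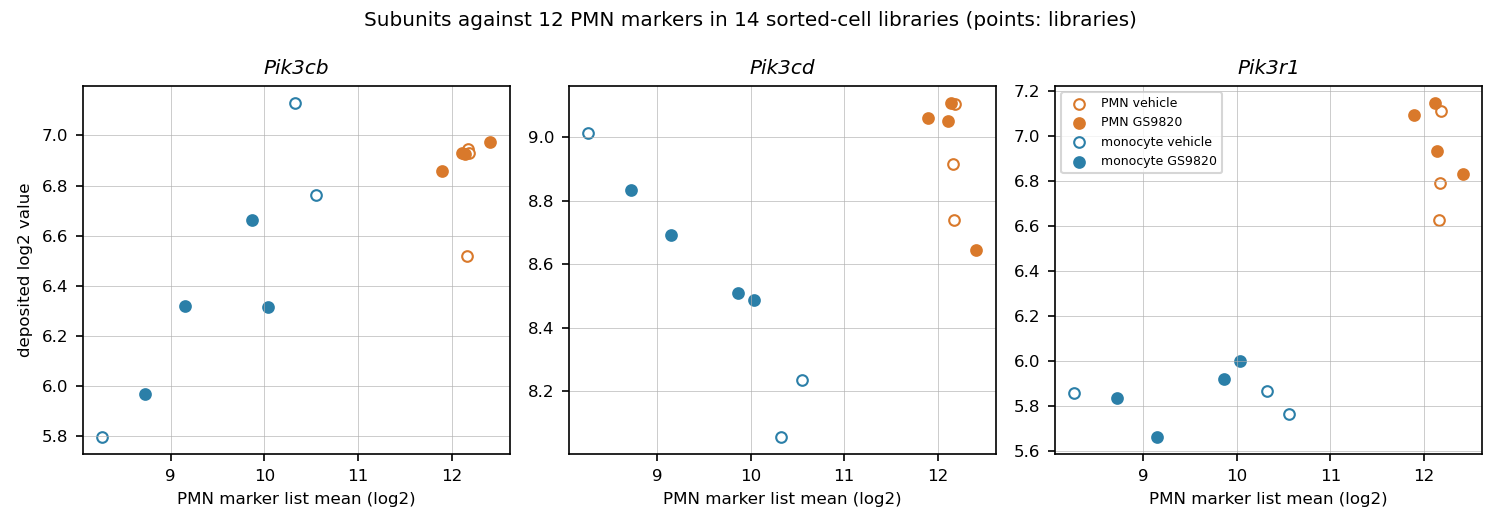
Deposited log2 values of Pik3cb, Pik3cd and Pik3r1 (y axes) against the mean of 12 PMN markers (x axis, log2) in 14 sorted-cell libraries, open for vehicle and filled for GS9820. Among monocytes Pik3cb lies higher and Pik3cd lower where the PMN markers are higher, and Pik3r1 lies near 5.84 throughout.

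Pathway genes around the kinases lay in both directions between the cell types, as did genes at large. In vehicle mice 7 of 38 were higher and 15 of 38 lower in monocytes (limma), beside 32.8% and 27.2% of all genes. After GS9820 these were 7 and 17 of 38, beside 37.6% and 32.1% of all genes. The adaptor gene Gab1 had the largest difference, 2.90 ± 0.64 in vehicle (adjusted p = 0.00182) and 2.53 ± 0.55 after GS9820 (adjusted p = 0.00129), from a PMN mean of 0.16 and 1.26. Lower in monocytes were Rasgrp4, a Ras activator (-1.64 ± 0.15 and -1.69 ± 0.13), the insulin receptor substrate gene Irs2 (-1.64 ± 0.23 and -2.01 ± 0.20) and the class II kinase gene Pik3c2b (-1.60 ± 0.40 and -1.92 ± 0.35).

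Genes whose pattern was most like that of each kinase are given as a description. Over the 12 tumours these were, for Pik3cd, the NF-κB inhibitor gene Nfkbie (Pearson r = 0.98), Dock2, a Rac activator of leukocytes (0.96), Arhgap30 (0.96), Arhgap9 (0.95) and Rassf5 (0.95). For Pik3cg they were Slc7a14 (0.95), Vav1 (0.94), Unc93b1 (0.93), Gvin1 (0.93) and Themis2 (0.92). For Pik3ca they were Plau, the urokinase gene (0.96), Tars (0.95), Loxl3 (0.95), Kctd15 (0.95) and Taf2 (0.95), and for Pik3cb Mrnip (0.89), Rab6b (0.88), Rpusd3 (0.88), Mrpl38 (0.87) and Mrps22 (0.87). None of the 5 genes nearest to one kinase was among those nearest to another.

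Over the 14 sorted-cell libraries, which include the step between PMN and monocytes, the nearest genes were others. They were Sgpl1 (r = 0.98), Plekho2 (0.96), Slc12a9 (0.95), Isg15 (0.95) and Parp9 (0.95) for Pik3cd, and Lsp1 (0.97), Krr1 (0.96), Cd300lb (0.96), Adgrb1 (0.96) and Vnn3 (0.96) for Pik3cg. For Pik3ca they were Trip6 (0.98), Rufy2 (0.98), Agrn (0.98), Tnnt3 (0.98) and Stat5b (0.98), and for Pik3cb Ugdh (0.98), Sun2 (0.97), Mvb12b (0.97), Rhou (0.97) and Samd10 (0.97). Isg15 is an interferon-induced ubiquitin-like protein, and Parp9 is induced by interferon as well.

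Within the family, Pik3cd and Pik3cg were the pair nearest each other over the tumours (r = 0.92), followed by Pik3cd with Pik3r5 (0.80). Pik3r1 and Pik3r2 lay farthest apart (r = -0.84), so that tumours high in the p85α gene were low in the p85β gene. Over the sorted libraries Pik3ca and Pik3r5 were nearest (0.94), then Pik3cg and Pik3r1 (0.91). The points of each correlation share library preparation and normalisation, and the sorted libraries fall into 2 cell types.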

How the data were processed

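RNA-seq values of 12 tumour and 14 sorted-cell libraries were used as deposited. The authors' files give log2 expression per gene, named log2 RPKM per the file headers. The submitters' processing notes name TopHat2, STAR, limma and mm10, without versions or roles. Libraries of a set share nearly 1 distribution, so counts and depth could not be recovered. Which of 2 library kits each sorted library had is not given in the sources used here.

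Symbols and positions came from GENCODE M21 (GRCm38): 16039 tumour and 13886 sorted-cell identifiers matched. Low genes were dropped, keeping those that reached log2 0 in 5 or more tumours (16296) or 3 or more sorted libraries (13968). Differences were tested with limma 3.58.1 (trend, two-sided, Benjamini-Hochberg over all kept genes, threshold 0.05) in R 4.3.3 with statmod 1.5.0, in 1 fit per set, and the scripts were tested on simulated data. Balances were tested by exact permutation of their mean difference, and correlations by 100000 permutations (SciPy 1.17.1, Python 3.11.15, matplotlib 3.10.9). For correlations within the 7 vehicle tumours all possible permutations were used instead. Members and gene lists were chosen with earlier results of these data known.

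All 10 members are named. Pathway genes are named as up to 4 past the threshold by size, or else the 2 of smallest p, and like genes as the 5 of highest Pearson r. Alternatives were filters, a pseudocount of 1, normalisations, eBayes settings, array weights, a replicate block, libraries left out and, added after the data were seen, 2 sets of libraries left out and a leukocyte covariate.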

Additional observations from a re-analysis of the deposited data

Results flagged for a closer look

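Each group of 4 to 7 libraries was checked for a highest or lowest library far from the rest, and 4 of 60 checks met that mark, where chance gives about 1 in 20. All 4 lie in GS9820-treated PMN, and 3 of them are library 2, which also had the highest PMN marker mean (12.41) and the highest erythroid mean of its group (4.46). In library 2 Pik3cd was 8.65, with the nearest other library at 9.05. Pik3r3 was -0.16 there, with the nearest other at -1.85, a gene at the low end of the scale. Pik3cd minus Pik3cb was 1.67 there, with the nearest other at 2.12. In library 3 Pik3cd minus Pik3cg was 1.33, with the nearest other at 1.04. The part of the marker means in these values was not tested. Without treated PMN library 2 the GS9820 difference of Pik3cd in PMN was 0.15 in place of 0.05.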

How the results depend on the processing

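The limits are these. Values share a distribution within each set, so precision per gene cannot be tied to depth. Groups of 3 and 4 sorted libraries allow no exact p under 0.0286, and groups of 3 and 3 none under 0.1. Tumours differ in leukocyte, epithelial, acinar, islet, endothelial and liver transcripts, and monocyte libraries in PMN transcripts.

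The count of tumour genes past the threshold was 2764 with array quality weights (1 member, Pik3r1), 185 without vehicle tumours 1 and 4 and treated tumours 1 and 3, and 64 with the leukocyte covariate, against 359 in the chosen design. Leaving out 1 tumour gave 0 to 1693 genes and 0 to 1 members. Without PMN vehicle 2 and monocyte vehicle 2, GS9820 gave 1 gene in PMN and 4 in monocytes, none of them a member. Leaving out 1 sorted library gave 0 genes for each treatment comparison and for the difference of effects, and 7485 to 8281 genes and 4 to 6 members in vehicle and 9017 to 10153 genes and 5 to 7 members after GS9820 for monocytes against PMN. Correlations past the threshold numbered 1 of 30, that of Pik3cd with leukocytes, without the 2 farthest tumours and 1 of 30 in vehicle tumours alone. The cause of these shifts was not tested. Fits that leave libraries out hold fewer of them, and the tumour count moved both up and down in such fits.

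No label says that a replicate number marks the same animal across groups, and the chosen tests treated libraries as unpaired. Same-numbered libraries had correlations of their deviations from -0.18 to 0.26 in tumours, 0.02 to 0.05 in PMN and -0.44 to 0.22 in monocytes. Between vehicle cell types they were 0.46, 0.28 and 0.09, and the highest with another number were -0.10, -0.00027 and -0.03 (3 of 3 best with their own). Between treated cell types they ran from -0.22 to 0.45 (2 of 4 best with their own). Whether vehicle libraries of the same number share an animal was not tested. With the replicate block the tumour count was 166, the call of Pik3cb between treated cell types was lost (adjusted p = 0.0637), and Pik3r6 in PMN was -0.031 and Pik3ca in monocytes -0.045, both across 0.

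Changes of sign occurred only in differences that had not passed. With array quality weights Pik3cg in monocytes was 0.070 and the difference of effects of Pik3r5 0.14. Without the 4 tumours named above Pik3r3 was -0.16. Without both vehicle libraries 2, Pik3cb in PMN was -0.018, and in monocytes Pik3ca was -0.14, Pik3cb 0.037, Pik3r2 -0.0071 and Pik3r5 -0.047. In the same setting Pik3r6 between vehicle cell types was 0.0071, and the differences of effects were 0.056 for Pik3cb, -0.038 for Pik3cd, -0.100 for Pik3r2 and -0.14 for Pik3r6.

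Leaving out 1 library gave for Pik3r6 in tumours -0.00097 to 0.48, and in PMN -0.018 to 0.20 for Pik3cb, -0.045 to 0.15 for Pik3cd and -0.075 to 0.24 for Pik3r6. In monocytes it gave -0.14 to 0.22 for Pik3ca, -0.63 to 0.037 for Pik3cb, -0.20 to 0.080 for Pik3cg, -0.024 to 0.089 for Pik3r1, -0.0071 to 0.34 for Pik3r2 and -0.047 to 0.32 for Pik3r5. Between vehicle cell types Pik3cb ran from -0.52 to 0.15 and Pik3r2 from -0.044 to 0.30. Differences of effects ran from -0.28 to 0.084 for Pik3ca, -0.040 to 0.44 for Pik3cd, -0.095 to 0.18 for Pik3cg, -0.15 to 0.20 for Pik3r2 and -0.25 to 0.12 for Pik3r5. Among balances Pik3r5 minus Pik3r6 in tumours ran from -0.27 to 0.25. In PMN Pik3cd minus Pik3cb ran from -0.24 to 0.063 and Pik3r1 minus Pik3r2 from -0.086 to 0.14. In monocytes these ran from -0.031 to 1.12 and from -0.30 to 0.050, and Pik3cd minus Pik3cb between vehicle cell types from -0.92 to 0.22.

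Relations with marker means that changed sign had not passed either. Without the 2 farthest tumours r was 0.065 for Pik3cb with leukocytes, 0.43 for Pik3cb, 0.090 for Pik3cd, 0.28 for Pik3cg and 0.080 for Pik3r6 with epithelium, and -0.020 for Pik3r3 and 0.21 for Pik3r5 with acinar markers. In vehicle tumours alone it was 0.49 for Pik3cb with leukocytes, -0.071 for Pik3r5 with epithelium, and -0.58 for Pik3cd, -0.29 for Pik3cg and -0.15 for Pik3r6 with acinar markers.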
